A study of Drosophila melanogaster with 2 samples.

Results

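The genes described are those for the proteins of the mitochondrial ribosome, chosen by symbol: every protein-coding gene of the Ensembl annotation whose symbol starts with mRpL (large subunit) or mRpS (small subunit). The rule found 73 genes among 13945 protein-coding genes, 47 of the large and 26 of the small subunit. Binding was measured by chromatin immunoprecipitation followed by sequencing (ChIP-seq) in whole Drosophila melanogaster embryos of both sexes, collected at 4 to 24 h, from a transgenic line that makes the zinc finger factor tiptop (tio) with GFP at its C-terminal end. An anti-GFP antibody was used on sonicated chromatin of 200 to 800 bp, in 2 biological replicates of 1 group. The labels give no promoter for the fusion. No second condition was measured, the control was not analysed here, and whole embryos mix all tissues, so that no value below belongs to a named cell type.

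Mitochondria carry a ribosome of their own, which translates the few messages of the mitochondrial genome, all of them for subunits of the respiratory chain and ATP synthase. Its RNAs come from the mitochondrial genome, whereas its proteins are encoded by nuclear genes, made in the cytosol and imported. The small subunit binds and decodes the message, and the large subunit holds the peptidyl transferase centre and the exit tunnel. Most of these genes are short, and in compact genomes such as that of the fly a short housekeeping gene often starts close to a gene on the other strand. Such neighbours are called head-to-head here when the 5 prime end of a protein-coding gene on the other strand lay upstream of the 5 prime end of the member by at most 1 kb.

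Peaks are those of the authors' list thresholded by IDR (irreproducible discovery rate, which scores how well peak ranks agree between replicates), with 3793 peaks on build dm6. Each carries the authors' signal value, taken from the pooled alignments, whose scaling is not given in the sources used here. The 3793 peaks were also the 3793 regions of highest signal in the pooled list. A gene held a peak if the summit, the highest point of the peak, lay in its span or within 1 kb upstream. Values per replicate come from the 30000 regions listed for each, matched to a summit at a distance of at most 100 bp. Of the 3793 peaks, 3504 were matched in both replicate lists. An unmatched peak lacked a summit at that distance in at least 1 list, which does not mean that no region overlapped it. Read depth per library is unknown. With 1 group of 2 replicates and no second condition, all values are descriptions and none was tested.

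Of the 73 mitochondrial ribosomal protein genes, 15 (20.5%) held an IDR peak, against 16.2% of all protein-coding genes. Each of the 15 held 1 summit. The members had a median span of 909 bp, against 2166 bp over all protein-coding genes, and a short gene offers a smaller window. Among protein-coding genes with a span of up to 2 kb the share was 6.40%, and 14 of the 70 members of that size held a peak. Where each summit went only to the protein-coding gene with the nearest annotated start, the order turned: 8 members (11.0%) then held a peak, against 16.3% of all genes and 8.30% of genes up to 2 kb. Peaks were held by 8 of 47 large subunit genes (17.0%) and by 7 of 26 small subunit genes (26.9%).

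Every one of the 15 summits also lay in the window of a neighbouring protein-coding gene, and at 14 of them a neighbour was in head-to-head arrangement. Over the whole IDR list, 21.6% of the summits that lay in a gene window lay in those of several genes. Sharing was also common in similar gene lists. It was found for 10 of 11 summits at respiratory chain genes (90.9%) and 20 of 29 at cytosolic ribosomal protein genes (69.0%). At other mitochondrial translation genes it was 1 of 2. A summit between head-to-head 5 prime ends lies in both windows by construction. At 13 of the 15 members (86.7%) the summit lay between the 5 prime ends of the member and its head-to-head neighbour, a position held by 7.22% of all IDR summits. Those include summits far from any start site, whereas a member summit lay by rule in the gene span or within 1 kb upstream. The shares are thus of unlike sets, and that of summits at short head-to-head genes is not given here. Head-to-head neighbours were common among the members whether or not they held a peak: 56 of 73 (76.7%) had one, against 33.3% of all protein-coding genes. Peaks were held by 14 of these 56 (25%), against 19.8% of all genes with such a neighbour, and by 1 of the other 17 (5.88%), against 14.3% of all genes without. For genes both up to 2 kb long and head-to-head, the share was 11.8% over all genes, and 14 of 55 members (25.5%). A peak between 2 start sites cannot be assigned to either gene from these data.

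**Figure D1:**
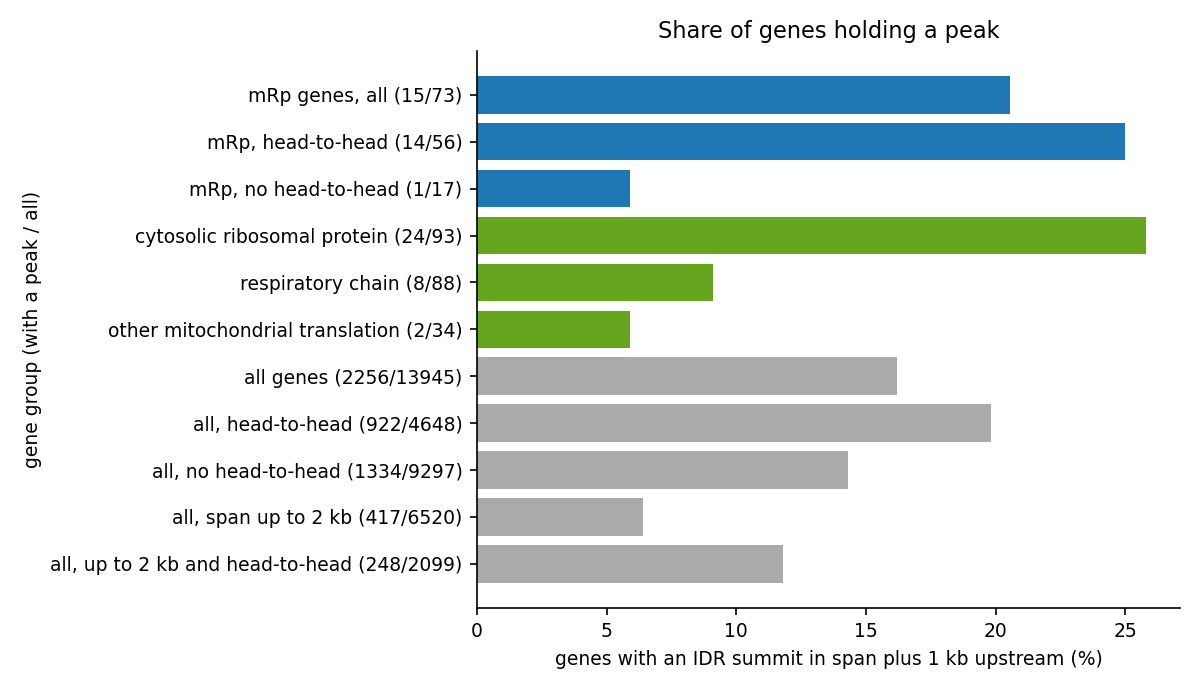
Bars give the percentage of genes with an IDR summit in the gene span plus 1 kb upstream, for the mitochondrial ribosomal protein (mRp) genes in blue, 3 comparison lists in green and backgrounds of all protein-coding genes in grey, with the counts beside each name. The mRp bar stands at 20.5%, above the bar of all genes at 16.2% and that of genes up to 2 kb at 6.40%, and the mRp genes with a head-to-head neighbour stand at 25%.

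The DNA that lies between the start sites is shown for 4 head-to-head pairs in which it was at most 300 bp long and held the summit, since these stretches are where binding was centred. Each reads 5 prime to 3 prime on the strand of the mRp gene, from the start site of the neighbour to that of the mRp gene, on dm6, and the 21 bases around the summit are in capitals. The strongly bound mRpL23, whose summit lay just inside the gene, is shown as its summit with 100 bp to either side. The stretches are mRpS10 with Art3 at chr3R:15229408-15229665 (plus strand), mRpS2 with Mon1 at chr2L:4850419-4850641 (minus strand), mRpL24 with betaggt-I at chr2L:4945361-4945579 (minus strand), mRpL11 with HtrA2 at chr3R:14511712-14511838 (plus strand) and the mRpL23 window at chr3L:2373519-2373719 (minus strand).
mRpS10: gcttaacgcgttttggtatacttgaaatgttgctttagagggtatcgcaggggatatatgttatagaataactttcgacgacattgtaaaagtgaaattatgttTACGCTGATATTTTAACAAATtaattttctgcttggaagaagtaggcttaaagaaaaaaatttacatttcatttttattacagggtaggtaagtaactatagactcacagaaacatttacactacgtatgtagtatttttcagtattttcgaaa
mRpS2: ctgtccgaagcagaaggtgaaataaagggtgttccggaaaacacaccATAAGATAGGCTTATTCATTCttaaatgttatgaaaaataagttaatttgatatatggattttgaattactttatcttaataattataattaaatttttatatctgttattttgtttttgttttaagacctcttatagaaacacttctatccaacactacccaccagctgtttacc
mRpL24: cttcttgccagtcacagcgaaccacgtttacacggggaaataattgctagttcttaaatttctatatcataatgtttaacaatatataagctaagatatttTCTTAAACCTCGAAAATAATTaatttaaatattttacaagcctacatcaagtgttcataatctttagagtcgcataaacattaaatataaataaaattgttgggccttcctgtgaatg
mRpL11: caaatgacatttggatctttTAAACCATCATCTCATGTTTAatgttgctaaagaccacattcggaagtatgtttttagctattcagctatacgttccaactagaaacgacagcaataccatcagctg
mRpL23: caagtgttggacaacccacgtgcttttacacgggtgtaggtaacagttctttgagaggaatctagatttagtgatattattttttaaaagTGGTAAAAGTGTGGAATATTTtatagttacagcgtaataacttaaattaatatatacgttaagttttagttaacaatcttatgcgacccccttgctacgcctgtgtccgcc
From Art3 to mRpS10 the G+C content was 30.2%, from Mon1 to mRpS2 28.7%, from betaggt-I to mRpL24 29.2% and from HtrA2 to mRpL11 36.2%, and the mRpL23 window had 35.8%.

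The strongest peak of the family lay between mRpS10 (FBgn0038307, chr3R:15229665-15230516, plus strand) and Art3, with its summit at 15229522. The protein mRpS10 is the mitochondrial relative of a small subunit protein of bacteria, and Art3 encodes a protein arginine methyltransferase. The authors' signal was 704 in replicate 1, 676 in replicate 2 and 1376 in the pooled list, where it ranked 8. The summit was 143 bp upstream of the start of mRpS10 and 114 bp upstream of that of Art3, so that the bound point sat near the middle of the 257 bp between them.

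The second, at mRpL41 (FBgn0034001, chr2R:15217024-15217617, minus strand), had its summit at 15217748. Its product belongs to the set of large subunit proteins that bacterial ribosomes lack. The signal was 687 in replicate 1, 587 in replicate 2 and 1268 in the pooled list (rank 13). The summit was 131 bp upstream of mRpL41 and 631 bp upstream of CG8079. The third, at mRpL23 (FBgn0035335, chr3L:2372844-2373704, minus strand), had its summit at 2373619, and the signal was 414 in replicate 1, 419 in replicate 2 and 841 in the pooled list (rank 44). The mRpL23 protein is the relative of a bacterial protein beside the exit of the tunnel. Here the summit lay 59 bp downstream of the nearest annotated start of the gene, in its 5 prime UTR, and 109 bp upstream of CG9004, outside the 50 bp between both starts. These 3 summits were the only ones of the 15 within the first 100 regions of the pooled list, and in each of the 3 both replicates listed the region among their first 60.

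The other large subunit genes with peaks had lower signals. At mRpL24 on 2L (summit 4945468), a relative of a bacterial protein of early assembly, the signal was 173 in replicate 1, 208 in replicate 2 and 380 in the pooled list. The summit was 107 bp from mRpL24 and 111 bp from betaggt-I, which encodes a subunit of a protein prenyltransferase. At mRpL20 on 3L (summit 13018101), the signal was 283, with 144 in replicate 1 and 138 in replicate 2. Its neighbour Icmt, for an enzyme that methylates prenylated proteins, started nearer to the summit, at 165 bp, than mRpL20 did, at 234 bp.

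At mRpL34 on 2R (summit 16098774) the signal was 138 in replicate 1, 127 in replicate 2 and 265 in the pooled list. The summit lay 174 bp upstream of mRpL34 and 210 bp upstream of Dg, the dystroglycan gene, which held 4 peaks in its 17389 bp. At mRpL37 on 3R, another gene for a protein without a bacterial counterpart, the signal was 188, with 101 in replicate 1 and 88.6 in replicate 2. That summit was 182 bp upstream of mRpL37. At mRpL4 on 2L (summit 16329258), whose protein lines the exit tunnel in relatives, the signal was 90.6 in replicate 1, 59.7 in replicate 2 and 151 in the pooled list. The summit was 126 bp from mRpL4 and 667 bp from CG4440, across the longest such interval, 793 bp.

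The weakest of the 15 was at mRpL11 on 3R (summit 14511742), where the signal was 44.9 in replicate 2 and 101 in the pooled list (rank 3122). The relatives of mRpL11 form the base of the stalk that binds translation factors. Replicate 1 listed no summit within 100 bp of it. The nearest, at 135 bp and inside the IDR peak, had a signal of 60.4 (rank 2804), so replicate 1 did list a region there. HtrA2, which encodes a protease of the mitochondrial intermembrane space, began 30 bp from the summit and mRpL11 96 bp from it, so that this summit lay between the starts of a pair of genes for mitochondrial proteins.

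Among the small subunit genes after mRpS10, mRpS2 on 2L had the highest signal (summit 4850584), with 188 in replicate 1, 231 in replicate 2 and 419 in the pooled list. The neighbour Mon1, for a subunit of the exchange factor that activates the late endosome GTPase Rab7, started 57 bp from it and mRpS2 165 bp from it. At mRpS6 on 3L (summit 4364435) the signal was 281, with 161 in replicate 1 and 116 in replicate 2. Its head-to-head neighbour Cip4, for an F-BAR protein that shapes membranes, began 333 bp away, and the summit also lay in the window of CG33514, which starts 999 bp downstream of it on the strand of mRpS6. At mRpS7 on 2L (summit 10386499) the signal was 222, with 122 in replicate 1 and 102 in replicate 2. The neighbour there is Cdk1, the kinase gene that drives entry into mitosis, whose start was 237 bp from the summit, against 163 bp for mRpS7.

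At mRpS26 on 3L (summit 18106339) the signal was 82.9 in replicate 1, 85.8 in replicate 2 and 167 in the pooled list. At mRpS25 on X (summit 14583419) it was 145, with 88.7 in replicate 1 and 56.3 in replicate 2. Both proteins are mitochondrial additions to the small subunit. The summits lay 240 bp upstream of mRpS26 and 437 bp upstream of mRpS25, farther from the member than in any other head-to-head pair, and in both the neighbour started nearer: CG13698 at 190 bp, and nmdyn-D6, of the nucleoside diphosphate kinase family, at 258 bp.

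At mRpS9 (FBgn0037529, chr3R:7889277-7902667, minus strand) the summit (7895652) was not near the start of the member: it lay 7015 bp downstream of its start, in an intron. The gene wtrw, for a TRP channel, lies on the other strand inside the span of mRpS9, and the summit was 170 bp upstream of one of its annotated starts. The signal was 171 in the pooled list and 79.9 in replicate 2. Replicate 1 listed no summit within 1973 bp. With its span of 13391 bp, mRpS9 was the longest of the 73 genes, and it was the only member with a peak but no head-to-head neighbour.

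**Figure D2:**
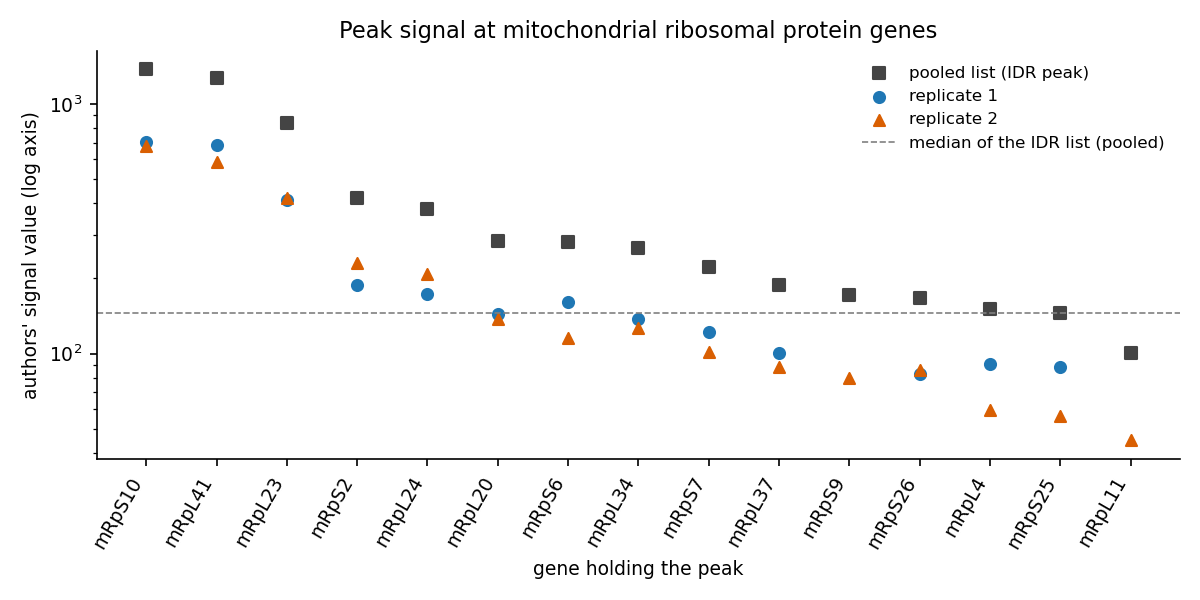
Points give the authors' signal on a log axis at each of the 15 members with a peak, from the pooled list, replicate 1 and replicate 2, in falling order of the pooled value. The pooled values run from 1376 at mRpS10 to 101 at mRpL11, and no replicate 1 point stands at mRpS9 or mRpL11, where that list held no matched summit.

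The median pooled signal of the 15 peaks was 265, with a range of 101 to 1376, against 145 over the IDR list, and 13 of the 15 lay at or above that median. Over the 274 IDR summits that lay between head-to-head 5 prime ends the median was 197, and over the 13 of them at members it was 265. Both replicates listed a matched region at 13 of the 15 summits. Replicate 1 was higher at 9 of the 13, with a median log2 ratio of replicate 1 to replicate 2 of 0.12 ± 0.29 (SD across 13 summits), against 0.16 ± 0.46 over 3504 matched IDR peaks. The ratio ran from -0.30 at mRpS2 to 0.66 at mRpS25. At mRpL4 and mRpS25 replicate 1 was 1.52 and 1.58 times replicate 2, and at the other 11 the replicates differed by less than 1.5-fold. Across the 13 summits Spearman's rho between the replicates was 0.97, a description of points that share both libraries. The pooled value was between 1.97 and 2.03 times the mean of both replicates at each of the 13, so a pooled value and a replicate value cannot be read on 1 scale.

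**Figure D3:**
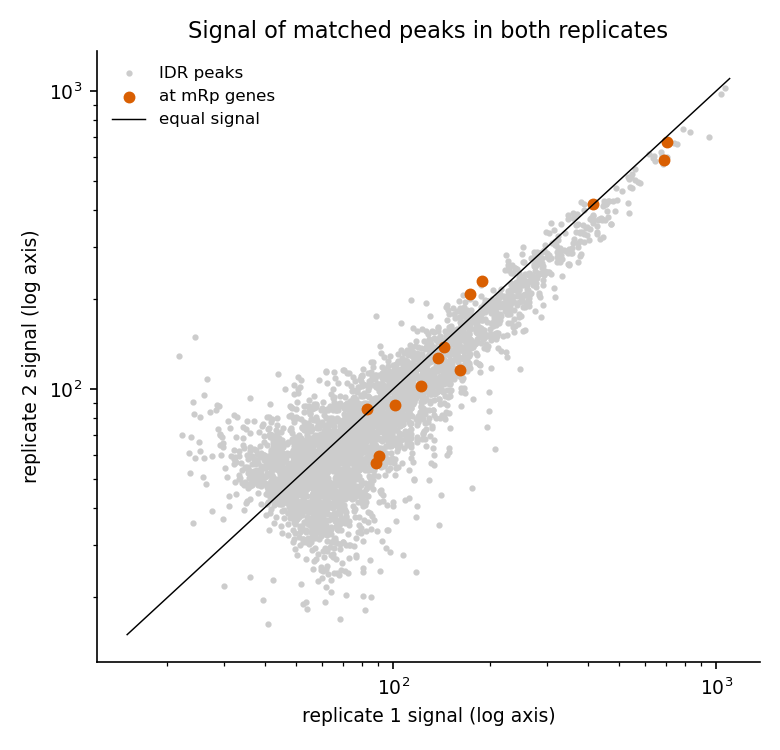
Each point is an IDR peak matched in both replicate lists, with replicate 1 signal on the x axis and replicate 2 signal on the y axis, both log axes; the line marks equal signal. The 13 matched peaks at mRp genes, in orange, lie along the line, with mRpL4 and mRpS25 the farthest below it.

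All summits but those of mRpL23, in a 5 prime UTR, and mRpS9, in an intron, lay outside annotated protein-coding genes. The median position of the 15 summits was -143 bp from the nearest annotated start of the member, negative being upstream. Of the 15, 12 lay within 250 bp upstream, mRpS25 lay farther upstream, and mRpL23 and mRpS9 were downstream. Over the 14 head-to-head pairs the annotated starts nearest to the summit were a median of 391.5 bp apart. The distance ran from 50 bp at mRpL23, whose 5 prime end lay 24 bp from that of CG9004, to 793 bp at mRpL4. The summit was nearer to the member at 7 of the 14 pairs, among them mRpL23 with its summit outside the interval, and nearer to the neighbour at the other 7. The nearer start thus did not single out the ribosomal protein gene. The nearest annotated start was that of the member at 7 of the 15 summits. These are 7 of the 8 members that held a peak by nearest start, and mRpL40 was the other.

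**Figure D4:**
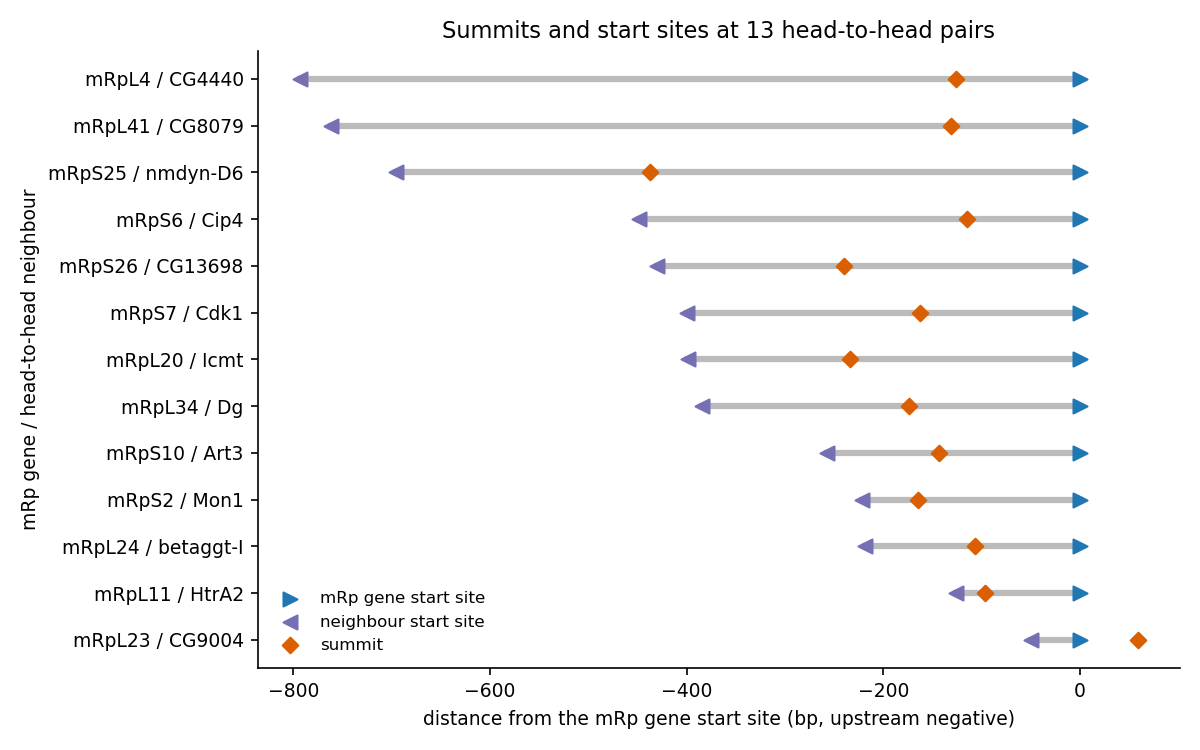
For 13 of the 14 head-to-head pairs with a summit, the x axis gives the distance in bp from the start site of the mRp gene (blue triangle, at 0), negative upstream, with the neighbour's start site in purple and the summit in orange; pairs are ordered by the distance between start sites. At mRpL23 the summit lies 59 bp downstream of the start, and in every other pair drawn it lies between both start sites; mRpL37 and mRpS9 are not drawn.

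Summits of the family were rich in A and T. The mean G+C content of the summit with 100 bp to either side was 30.6% ± 3.92 (SD, n = 15 summits), from 25.9% at mRpL37 to 37.3% at mRpL4 and mRpS25, against 33.8% ± 5.99 over all 3793 IDR summits, and 11 of the 15 were below that mean. The 274 IDR summits between head-to-head 5 prime ends had 31.3% ± 5.22, and the 13 of them at members had 30.2% ± 3.94. The differences were not tested. In windows of 25 bp along the plus strand the members' mean was 45.1% at -300 bp, 29.6% at the summit, 25.6% at 25 bp beyond it, the lowest value of the profile, and 47.5% at 300 bp.

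**Figure D5:**
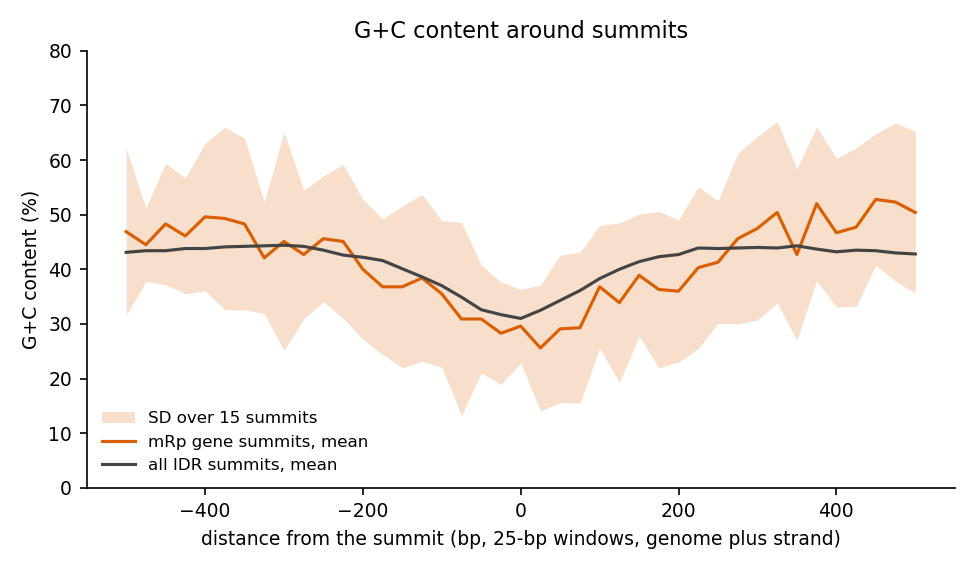
The orange line is the mean G+C content in 25-bp windows around the 15 summits at mRp genes, with the SD over summits shaded, and the dark grey line is the mean over all IDR summits; the x axis is the distance from the summit in bp. Both lines dip around the summit, where they stand at 29.6% and 31.0%.

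Short sequence motifs were searched on both strands in the same windows. The site TATCGATA, the DNA replication-related element (DRE) bound by DREF, which is known from promoters of many growth and mitochondrial genes in the fly, was at 0 of the 15 summits, against 1.48% of all IDR summits and 7.30% of those between head-to-head 5 prime ends. The homeodomain core TAATTA was at 5, those of mRpS2, mRpL24, mRpS7, mRpS26 and mRpS25, against 19.1% of all IDR summits and 28.1% of the head-to-head ones. CAGCTG was at 2, mRpS2 and mRpL11, against 6.88% of all and 12% of the head-to-head summits. CACGTG, the E-box read by Myc and Max, was at mRpL23, against 1.69% of all and 2.19% of the head-to-head summits. The other single matches were CATATG at mRpL34 (8.91% of all and 6.57% of head-to-head summits), TGCGCA at mRpS26 (2.93% and 4.01%) and CAGTGC at mRpL20 (16.4% and 12.8%). GGTCACACT (0.554% and 1.09%) and GAGAGAG (3.16% and 1.46%) were at none. Of the 9 motifs, all but GGTCACACT, GAGAGAG and CAGTGC read the same on both strands. A match describes the letters in the window and says nothing of a bound factor. With 15 summits, a count of 0 cannot be read as a lack of a motif.

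Below the IDR list, regions were looked up in the pooled list and in the lists of each replicate, which also hold background. Of the 58 members without an IDR peak, 3 had regions in both replicate lists with summits at most 100 bp apart, namely mRpL33, mRpS21 and mRpS5. With the 13 members whose window held both an IDR peak and matched regions in both replicate lists, thus without mRpL11 and mRpS9, this made 16 of 73 (21.9%), against 27.3% of all protein-coding genes. The members are mostly short and offer smaller windows, and the share among short genes is not given here. The lower share can therefore not be read as a trait of the members. At mRpL33 on X the pooled signal was 78.1 (rank 4451), under the lowest value of the IDR list, 87.5, with 22.1 in replicate 1 and 56.2 in replicate 2. That region lay in the window of the head-to-head neighbour norpA, the phospholipase C gene of phototransduction. At mRpS21 on 3R, between it and Droj2, the signal was 37.2 in replicate 1 and 52.9 in replicate 2, with no region of the pooled list. At mRpS5 on 3L, a gene of 6299 bp, the pooled list held 6 regions, the highest with a signal of 65.1 at 3906 bp downstream of the nearest annotated start. The matched replicate regions were at another site, -307 bp in replicate 1, and had 35.2 in replicate 1 and 21.4 in replicate 2. The next highest pooled signals were at mRpL32 (48.9), mRpL13 (43.9) and mRpS18A (30.0), where the replicates did not list matched summits.

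A further 10 members had a region in the replicate 2 list only and 0 in the replicate 1 list only. The highest of these was at mRpS24, with a signal of 73.2 (rank 1950) in replicate 2, at -207 bp from its start. Its head-to-head neighbour is Apc2, which encodes a component of the Wnt destruction complex. Members with any region numbered 29 in replicate 2, and 20 in replicate 1 and in the pooled list. For these counts the shares over all protein-coding genes are not given here.

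In 42 of the 73 members (57.5%) no list held a region, and 30 of these 42 had a head-to-head neighbour. They were mRpL1, mRpL3, mRpL9, mRpL12, mRpL14, mRpL15, mRpL16, mRpL17, mRpL18, mRpL19, mRpL22, mRpL27, mRpL28, mRpL30, mRpL35, mRpL38, mRpL40, mRpL42, mRpL43, mRpL44, mRpL45, mRpL46, mRpL47, mRpL48, mRpL49, mRpL50, mRpL51, mRpL52, mRpL53, mRpL54, mRpL55, mRpS14, mRpS16, mRpS17, mRpS18C, mRpS22, mRpS23, mRpS28, mRpS29, mRpS33, mRpS34 and mRpS35. All annotated large subunit genes numbered 42 and above were thus without a region. The share of all protein-coding genes without a region is not given here, and a short gene offers a smaller window. These absences can therefore not be read as a trait of the family. At 5 of the 56 members with a head-to-head neighbour, that neighbour held IDR peaks, all of them outside the window of the member. These neighbours were if, an integrin gene, beside mRpL22, qless, for coenzyme Q synthesis, beside mRpL32, norpA beside mRpL33, CenG1A beside mRpS23 and hzg beside mRpS31. The nearest of those summits lay 2058 bp from the start of mRpL33, in norpA. The share over all genes with a head-to-head neighbour is not given here.

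Other genes of mitochondrial translation were counted by the same rule. Of 34 genes for translation factors, tRNA synthetases, mitochondrial transcription and RNA proteins, and the ribosomal proteins tko and bonsai, whose symbols the rule does not take in, 2 (5.88%) held a peak. They were LeuRS-m, for the mitochondrial leucyl-tRNA synthetase (signal 480, with 254 in replicate 1 and 233 in replicate 2, in a window shared with Dhc64C), and mIF2, for an initiation factor (signal 95, with 52.2 and 38.5). Nuclear genes of the respiratory chain and ATP synthase held peaks in 8 of 88 cases (9.09%), with the highest signals at ND-SGDH (211), ND-39 (152) and SdhA (139). Of their 11 summits, 5 lay between head-to-head 5 prime ends. Of 93 genes for cytosolic ribosomal proteins, 24 (25.8%) held a peak, led by RpS27 (544), RpL7 (323) and RpS20 (313), and 15 of their 29 summits lay between head-to-head 5 prime ends, against 13 of 15 at the mitochondrial ribosomal protein genes. Head-to-head neighbours were found for 59.1% of the cytosolic ribosomal protein genes, 42.0% of the respiratory chain genes and 52.9% of the other mitochondrial translation genes, against 76.7% of the members. The counts depended on the list of peaks and on the assignment. By nearest annotated start only, 8 of 73 members (11.0%) and 10 of 88 respiratory chain genes held a peak. That rule gave 23 of 93 cytosolic ribosomal protein genes and 1 of 34 other mitochondrial translation genes. Without replicate 1, where peaks were the 3793 highest regions of the replicate 2 list, 39 of 93 cytosolic ribosomal protein genes held a peak. There the members numbered 17 of 73 (23.3%), against 17.8% of all protein-coding genes. Among IDR peaks at or above the median signal the order of the shares of both ribosomal lists turned, with 14 of 93 cytosolic ribosomal protein genes against 13 of 73 members (17.8%), and 2 respiratory chain genes and 1 other mitochondrial translation gene held a peak. The differences between lists were not tested.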

How the data were processed

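ChIP-seq peak lists on dm6 were used. Per the notes deposited with the samples, each replicate list was made from that replicate and 1 control, the pooled list from both replicates and the control, and the IDR list from these lists. Which aligner and peak caller were run, and at which IDR threshold, is not given in the sources used here. The deposited signal value per peak has no stated scaling. Q-values were deposited as -log10, and summits, also deposited, as an offset from the start of the peak. No read depth is known. Lists on dm3 were not used, since genes could not be placed on that build.

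Genes came from Ensembl BDGP6.54 (release 115) on 6 arms, without transposable elements, and sequence from the RefSeq genome of the same release, whose arm lengths held all regions. Summits were assigned with pandas 2.3.3 and numpy 2.4.6 under Python 3.11.15. Start sites are those of all annotated transcripts. Coordinates are 1-based. The assignment was tested on simulated data. The members, lists, motifs and named genes (all members with an IDR peak and their neighbours, the 5 highest of the others by pooled signal, members without a region, and the leading genes of the other lists) were chosen with earlier results of these data known. Of the symbols in the list of other mitochondrial translation genes, 9 matched no gene and were left out. Alternatives covered each replicate alone, threshold, window, assignment, background, matching distance and start site. The backgrounds of genes up to 2 kb and the alternative with summits matched in both replicates were chosen after seeing the data. The neighbour of mRpL37 is counted but not reported here.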

Additional observations from a re-analysis of the deposited data

How the results depend on the processing

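The number of members with a peak stayed between 13 and 17 under 8 of the 9 alternatives run, and moved to 8 when each summit went to the nearest start site only. It was 14 to 17 with 1 replicate left out. For that alternative, peaks were the 3793 highest regions of the list of the other replicate, which also holds background, and not a new IDR list. The IDR peaks at or above the median signal gave 13, without mRpL11 and mRpS25. The share of all genes with a peak was 17.8% without replicate 1 and 16.9% without replicate 2, 10.9% with the stronger peaks, 15.3% and 17.9% with 500 bp and 2 kb upstream, 12.6% within 1 kb of a start site, 15.5% with summits matched in both replicates, 11.7% among genes no longer than mRpS9, 19.8% with a head-to-head neighbour, 6.40% up to 2 kb and 11.8% with both limits. Cytosolic ribosomal protein genes with a peak numbered 30 to 39 with 1 replicate left out, 39 without replicate 1, and 14 in the stronger peaks, where respiratory chain genes numbered 2. Other mitochondrial translation genes numbered 2 with either replicate left out and 1 in the stronger peaks, with 500 bp upstream and with the nearest start site. The median signal at members was 102 to 141 with 1 replicate left out, on the scale of single replicates, and 205 with 2 kb upstream. The median position was -160 to -149 bp with 1 replicate left out and -164 bp with 2 kb upstream. The mean G+C content was 29.2% to 30.5% with 1 replicate left out and 28% within 50 bp. With 5 prime ends at most 250 bp apart, 23 members had a head-to-head neighbour. Shared summits numbered 13 of 15 with 500 bp upstream and 14 to 17, all of those found, with 1 replicate left out. TATCGATA stayed at 0 in every alternative run. These had 14 to 18 summits, mostly at the same members, too few to read 0 as a lack of the site. Where a value moved with the window or background, fewer or more genes or bases were counted by construction; otherwise the cause was not tested. No paired analysis was possible because there is 1 group. With depth unknown, absence of a weak region is not absence of binding.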
